A study of Mus musculus with 2 samples.

Results

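The genes described here act at 2 successive steps of fertilization: the fusion of sperm and egg, and the calcium release that activates the egg. They are 10 genes of the 36227 in the deposited table, chosen by name and function: Izumo1r (also called Folr4 or Juno), Cd9, Cd81, Itpr1, Camk2g, Atp2a2, Stim1, Orai1, Trpm7 and Cacna1h. Each symbol matched 1 Ensembl gene of the table, and each of the 10 had counts. The oocytes came from female mice of the ICR strain that were obese by 12 weeks of age under standard housing. For the slimming group the next 4 weeks were spent in enriched-environment (EE) cages, while the control group, labelled as mothers fed standard diet, stayed in the normal cage. At 16 weeks, naturally ovulated eggs in metaphase II (MII), the stage at which a mouse egg waits for sperm, were taken from 3 females of each group. Their RNA was made into 1 library per group, pooled from 3 eggs of each female and 9 in all.

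Because each group is 1 pool, no difference below has a replicate check and no test of the groups could be made. The intervals given are exact 95% intervals for counting error only, and they describe these libraries, not the 2 ways of life. In all, 20947962 reads were counted for slimming oocytes and 20242289 for control oocytes. In such pools fewer eggs of a kind and less RNA per egg cannot be told apart. The labelled cell type was checked with 10 oocyte markers such as Gdf9 and Bmp15. All 10 were counted in both libraries, and they summed to 62782 CPM (counts scaled to a library of 1e6) in slimming oocytes and 60510 CPM in control oocytes. Gdf9 made up most of both sums, at 44674 and 45613 CPM, and 8 of the 10 had a higher CPM in slimming oocytes. Of these, Nlrp5 was nearly level at 465.7 and 465.3 CPM. By the scaled log2 ratio used below, Nlrp5 (-0.03) lay below 0 with Gdf9 (-0.06) and Mos (-0.05). Over all genes with at least 10 CPM in 1 library, 51.4% had a ratio above 0.

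Fusion begins when IZUMO1 on the sperm binds JUNO, the product of Izumo1r, a membrane-anchored protein of the folate receptor family that no longer binds folate. CD9, a tetraspanin that organizes the egg membrane, is also required for fusion in the mouse, and CD81 is a related tetraspanin with a partly overlapping role. The sperm then delivers phospholipase C zeta, which makes inositol trisphosphate (IP3), and IP3 opens receptors in the endoplasmic reticulum, so that calcium in the egg rises and falls repeatedly. Pumps and channels refill the store between these rises, and calmodulin-dependent kinase II (CaMKII) turns the calcium signal into release from the metaphase II arrest. In mouse eggs the IP3 receptor encoded by Itpr1 is known as the main one, and the gamma form of CaMKII, encoded by Camk2g, is the one needed for activation.

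The 3 egg surface genes were each higher in the slimming library, and their promoters are shown because they share a role and a direction. The sequences are the 250 bases before the RefSeq start of each gene (build GRCm38.p6), written 5′ to 3′ on the gene's strand. Capitals mark 2 motifs found on either strand: the E-box CANNTG, the element read by basic helix-loop-helix factors, and the GC box GGGCGG, which SP1-type factors bind. The TATA box TATAAA was searched in the same way. Izumo1r lies at chr9:14903768-14904017 on the minus strand, Cd9 at chr6:125494761-125495010 on the minus strand and Cd81 at chr7:143052500-143052749 on the plus strand.
Izumo1r: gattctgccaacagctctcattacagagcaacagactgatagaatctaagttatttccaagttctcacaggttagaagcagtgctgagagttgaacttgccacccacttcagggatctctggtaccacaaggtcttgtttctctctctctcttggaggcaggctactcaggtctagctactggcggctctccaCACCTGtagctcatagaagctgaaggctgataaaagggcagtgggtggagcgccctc
Cd9: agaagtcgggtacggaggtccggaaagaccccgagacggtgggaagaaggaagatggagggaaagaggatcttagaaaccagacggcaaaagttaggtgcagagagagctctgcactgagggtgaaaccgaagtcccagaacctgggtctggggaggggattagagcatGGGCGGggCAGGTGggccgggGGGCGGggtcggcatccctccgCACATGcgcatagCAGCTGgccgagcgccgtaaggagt
Cd81: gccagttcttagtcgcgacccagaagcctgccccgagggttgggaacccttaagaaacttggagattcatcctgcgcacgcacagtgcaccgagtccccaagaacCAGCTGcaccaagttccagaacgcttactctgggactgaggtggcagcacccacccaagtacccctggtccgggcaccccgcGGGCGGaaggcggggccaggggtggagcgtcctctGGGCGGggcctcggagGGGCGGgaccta

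The Izumo1r window held 1 E-box, beginning 57 bases before the start, and 0 GC boxes. Cd9 held 3 E-boxes, at 73, 38 and 25 bases before its start, and 2 GC boxes. Cd81 held 1 E-box, at 145 bases, and 3 GC boxes. The windows of Stim1, Orai1 and Trpm7, the other members with a RefSeq entry, held 1, 1 and 2 E-boxes. Their GC boxes numbered 8, 3 and 0, so GC boxes were not particular to the surface genes. None of these 6 windows held the letters TATAAA. Of 32851 mouse windows of this length 66.2% hold an E-box, 32.7% a GC box and 12.4% a TATA box, so the E-box is a common word that these windows share with most others. Itpr1, Camk2g, Atp2a2 and Cacna1h have no entry.

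Izumo1r (ENSMUSG00000031933, chromosome 9) was the member with the largest difference among the 5 called expressed, which means at least 10 CPM in at least 1 library. It had 2165 counts or 103 CPM in slimming oocytes and 1158 counts or 57.2 CPM in control oocytes. The slimming level was 1.77-fold higher, a log2 ratio of 0.82 with a counting interval of 0.72 to 0.93. Over the 5714 expressed genes 4.80% had a ratio at least as high. Folr1 and Folr2, the folate-binding relatives of Izumo1r, had at most 5 counts, so Izumo1r held 99.8% of the family's level per kilobase of transcript in either library.

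Cd9 (ENSMUSG00000030342, chromosome 6) and Cd81 (ENSMUSG00000037706, chromosome 7) were far less abundant. Cd9 had 127 counts (6.06 CPM) in slimming oocytes and 70 counts (3.46 CPM) in control oocytes. That is 1.71-fold higher, a log2 ratio of 0.77 with an interval of 0.35 to 1.22. Cd81 had 46 counts (2.20 CPM) against 26 counts (1.28 CPM), 1.66-fold higher at a log2 ratio of 0.73, and its interval of 0.02 to 1.5 came close to 0. Both tetraspanins thus differed in the direction of Izumo1r, but rested on few reads. Among the 5296 genes between 1 and 10 CPM, 22.1% had a ratio as high as that of Cd9 and 23.4% as high as that of Cd81.

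The 3 genes share short transcripts, with a longest annotated form of 1.29 kb for Izumo1r, 1.23 kb for Cd9 and 1.61 kb for Cd81. In these libraries short transcripts ran higher in slimming oocytes. The median log2 ratio was 0.16 over 1192 expressed genes of up to 2 kb and -0.02 over 4403 longer ones. At least 1.5-fold higher were 19.9% of the short genes and 7.54% of the longer ones. A ratio as high as that of Izumo1r was found in 10.2% of the short genes and 3.25% of the longer ones. With the trend in length removed, the log2 ratio was 0.63 for Izumo1r, 0.57 for Cd9 and 0.60 for Cd81. The 3 genes then stood 1.55-fold, 1.48-fold and 1.52-fold higher. The trend was fitted on expressed genes only, so for Cd9 and Cd81, between 1 and 10 CPM, it was carried over from more abundant genes. Among the oocyte markers the egg coat genes Zp1, Zp2 and Zp3 differed about as much, with log2 ratios of 0.94, 0.81 and 1.03. The remaining oocyte markers differed less, from -0.06 (Gdf9) to 0.38 (Oosp1).

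Cd9 and Cd81 are also made by cells that surround or visit the egg, and the summed markers of such cells were lower in the slimming library. Of 10 immune markers, 7 had no counts in slimming oocytes and all 10 had counts in control oocytes, with sums of 7.92 CPM and 18.6 CPM. Among those at 0 in slimming oocytes were the defining receptor partners Tyrobp and Fcer1g, which had 57 and 62 counts in control oocytes. Cd68 and Laptm5 made up most of the slimming sum, with 79 and 86 counts in slimming oocytes and 103 and 75 in control oocytes. Of 12 cumulus and granulosa markers 9 were at 0 in slimming oocytes and 5 in control oocytes, including Fshr, Foxl2 and Amh in both, and Has2 was the only one with more counts in slimming oocytes (5 and 2). Their sums were 41.2 CPM and 53.8 CPM, most of it from Cyp19a1. Of 7 oviduct markers 4 and 1 were at 0, with sums of 5.20 CPM and 12.4 CPM. The part of these cells in the tetraspanin values was not tested.

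**Figure D1:**
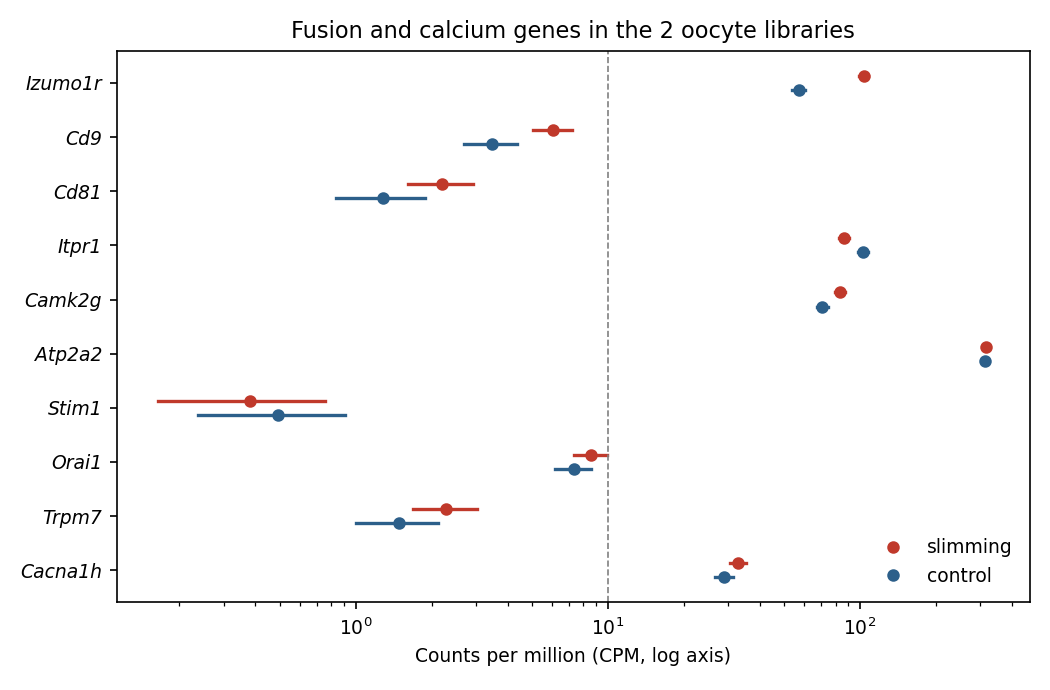
Level of each of the 10 genes in the slimming (red) and control (blue) library, in CPM on a log axis. Points are single libraries, bars are exact 95% counting intervals and the dashed line marks 10 CPM. Izumo1r, Cd9 and Cd81 sit higher in the slimming library, Atp2a2 is level at 315 and 312 CPM, and Stim1 is near the limit of detection.

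Of the calcium release genes, the receptor gene was lower and the kinase gene slightly higher in the slimming library. Itpr1 (ENSMUSG00000030102, chromosome 6), which encodes the IP3 receptor of the endoplasmic reticulum, had 1812 counts (86.5 CPM) in slimming oocytes and 2079 counts (103 CPM) in control oocytes. It was 1.21-fold lower, a log2 ratio of -0.28 with an interval of -0.37 to -0.19. It was the only one of the 10 genes whose interval lay wholly below 0. With the length trend removed its log2 ratio was -0.19. Camk2g (ENSMUSG00000021820, chromosome 14) had 1741 counts (83.1 CPM) against 1436 counts (70.9 CPM), 1.15-fold higher with a log2 ratio of 0.20 and an interval of 0.10 to 0.30. Differences of this size were common, since 47.2% of the expressed genes were at least as far from 0 as Itpr1 and 60.9% as Camk2g.

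Among the genes that refill the calcium store, the pump was equal in both libraries and the sensor was barely detected. Atp2a2 (ENSMUSG00000029467, chromosome 5) encodes SERCA2, the pump that returns calcium to the endoplasmic reticulum. It had 6593 counts (315 CPM) in slimming oocytes and 6324 counts (312 CPM) in control oocytes. Its log2 ratio was -0.02 with an interval of -0.07 to 0.03, and the sign turned to 0.01 with scaling by total count and to 0.02 with the length trend removed. Stim1 (ENSMUSG00000030987, chromosome 7), the calcium sensor of the store, had 8 counts in slimming oocytes and 10 in control oocytes, or 0.382 and 0.494 CPM. The interval of its log2 ratio ran from -1.95 to 1.09, so no difference was detectable at this depth. Orai1 (ENSMUSG00000049686, chromosome 5), the plasma membrane channel that STIM1 opens, had 179 counts (8.54 CPM) against 148 counts (7.31 CPM). Its log2 ratio of 0.19 had an interval of -0.13 to 0.52, which included 0.

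The 2 other members that let calcium into the egg from outside, Cacna1h and Trpm7, had counting intervals that included 0. Cacna1h (ENSMUSG00000024112, chromosome 17), a T-type voltage-gated channel that helps fill the egg's store during maturation, had 688 counts (32.8 CPM) in slimming oocytes and 584 counts (28.9 CPM) in control oocytes. The log2 ratio was 0.16, with an interval of -0.01 to 0.32. Trpm7 (ENSMUSG00000027365, chromosome 2), a channel fused to a kinase that also carries magnesium and zinc, had 48 counts (2.29 CPM) and 30 counts (1.48 CPM). Its log2 ratio was 0.59, and the interval of -0.09 to 1.31 included 0. With 5 added to each count in place of 0.5 the log2 ratio of Trpm7 was 0.52.

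**Figure D2:**
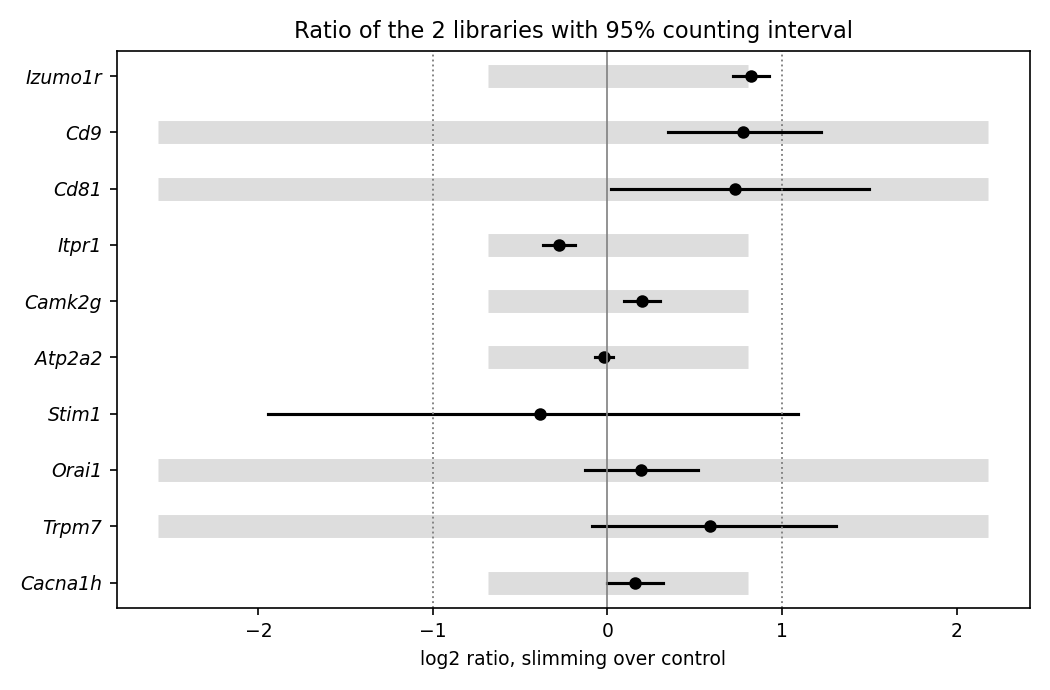
Log2 ratio of slimming over control for the 10 genes, with exact 95% counting intervals as bars. Grey bands run from the 5th to the 95th percentile of all expressed genes, or of all genes between 1 and 10 CPM for Cd9, Cd81, Orai1 and Trpm7; Stim1, below 1 CPM, has no band. Dotted lines mark 2-fold, which no point reaches, and Izumo1r lies just above the top of its band.

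Read as a set, the 10 genes held 0 members at least 2-fold apart. Among expressed genes 2.73% lay that far up and 1.94% that far down, and between 1 and 10 CPM 16.7% and 16.5% did. At 1.5-fold, 1 of the 5 expressed members (Izumo1r) was higher against 10.3% of expressed genes, and 0 were lower against 7.16%. Between 1 and 10 CPM, 3 of 4 members (Cd9, Cd81 and Trpm7) were at least 1.5-fold higher, where 27.4% of the genes of that level were. This count depends on the processing. Trpm7 fell below 1.5-fold with 5 added to each count (log2 0.52), and Cd9 with the length trend removed (1.48-fold). The counting interval lay above 0 for 2 of the 5 expressed members (background 37.7%) and below 0 for 1 (background 35.1%). In the class of 1 to 10 CPM it lay above 0 for 2 of 4 (background 27.8%) and below 0 for 0 of 4 (background 28%). The log2 ratio itself was above 0 for 3 of the 5 expressed members, against 51.4% of expressed genes, and for 4 of 4 between 1 and 10 CPM, against 51%. The median log2 ratio of the 5 expressed members was 0.16, and that of all expressed genes was 0.02. The authors' deposited table marked 4 of the 10 at a p-value of 0.001, which compares the reads of 2 libraries. Of these, Izumo1r, Cd9 and Camk2g were higher and Itpr1 lower, where 35.9% of the genes with a deposited p-value were marked.

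Per kilobase of the longest annotated transcript, the levels spanned a wide range in both libraries. In the slimming library Izumo1r led at 80.1 CPM per kb (interval 76.7 to 83.5), followed by Atp2a2 at 55.5 (54.1 to 56.8). In the control library Atp2a2 led at 55.1 CPM per kb (53.7 to 56.4), ahead of Izumo1r at 44.3 (41.8 to 46.9). The order of the fusion receptor and the pump thus differed between the libraries on this scale only, since in CPM not divided by length Atp2a2 led Izumo1r in both. Camk2g came next with 22.4 and 19.2 CPM per kb, then Itpr1 with 8.76 and 10.4. Cd9, Orai1 and Cacna1h followed between 2.82 and 4.94 CPM per kb in both libraries. Their intervals overlapped one another in each library, so no order among these 3 could be read. Cd81 had 1.37 and 0.799 CPM per kb, Trpm7 0.322 and 0.209, and Stim1 0.0876 and 0.113, where the control intervals of Trpm7 and Stim1 overlapped. Because cDNA was primed from the poly(A) end, length division can understate long transcripts such as Itpr1.

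Several members were the main or only counted gene of their family, and others were not. Camk2g held 99.6% of the CaMKII level per kb in slimming oocytes and 99.0% in control oocytes, with 0 counts of Camk2a and at most 15 counts of Camk2b or Camk2d. Atp2a2 was the only SERCA gene with counts, since Atp2a1 and Atp2a3 had none, which allows up to 3 counts or 0.143 and 0.148 CPM. Cacna1h held 78.1% and 75.4% of the T-type channel level, with Cacna1i next at 224 counts in each library. In store refilling the relatives were ahead. Orai3 had 14.8 and 11.7 CPM per kb where Orai1 had 4.56 and 3.90, and Stim2 had 0.929 and 0.631 CPM per kb where Stim1 had 0.0876 and 0.113. Among 6 tetraspanins, Cd151 led with 22.9 and 18.8 CPM per kb, above the 4.94 and 2.82 of Cd9.

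The IP3 receptors were the widest case. Itpr2, the second receptor gene, had 119462 counts (5703 CPM) in slimming oocytes and 63151 counts (3120 CPM) in control oocytes. It was 1.79-fold higher at a log2 ratio of 0.84 (interval 0.83 to 0.85), while Itpr1 was lower and Itpr3 stood at 13.4 and 11.9 CPM. Per kb, Itpr2 held 97.9% and 95.8% of the receptor level and Itpr1 1.76% and 3.73%. In GENCODE vM21 no other gene shares exon sequence with Itpr2, but the gene models counted on mm9 may differ from it, which bears on the length and share of Itpr2. The deposited table gives 1 count per gene, so where in the Itpr2 locus these reads lie was not analysed here.

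**Figure D3:**
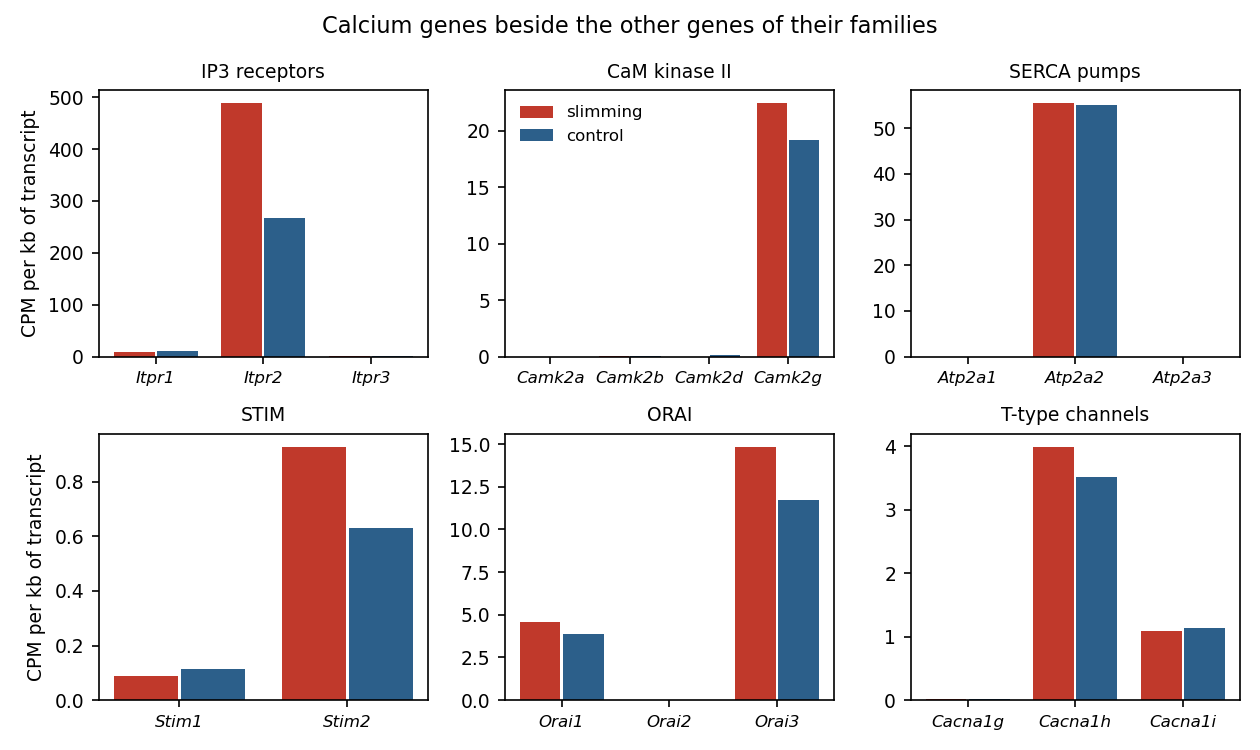
Level of calcium genes beside their family relatives, in CPM per kb of the longest annotated transcript, in the slimming (red) and control (blue) library; each bar is 1 library, so there are no error bars. Itpr2, Orai3 and Stim2 stand above the members Itpr1, Orai1 and Stim1, while Camk2g, Atp2a2 and Cacna1h lead their families.

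Around these 10 genes, a list of 101 further genes of fusion, calcium handling and egg activation was read in 9 roles. Counts were present for 90 and 42 were expressed. Of the 42, 23 had a log2 ratio above and 19 below 0, with a median of 0.08. At least 2-fold higher were 0 genes (background 2.73%), and 1 was lower by as much (background 1.94%). At 1.5-fold 4 were higher (background 10.3%) and 3 were lower (background 7.16%). By these counts the list was near the expressed genes as a whole, whose median was 0.02.

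The gene at least 2-fold lower was Plcb3, a phospholipase C that makes IP3 downstream of receptors. It had 79 counts (3.77 CPM) in slimming oocytes and 211 counts (10.4 CPM) in control oocytes, 2.81-fold lower at a log2 ratio of -1.49 (interval -1.89 to -1.12). Plcb3 reached 10 CPM in the control library only, so it counts as expressed only through the library where it is higher. In the same role Itpr2 was the most abundant of 9 expressed genes, 6 above and 3 below 0. Among 8 expressed surface partners, 5 lay above and 3 below 0. There the integrin Itga9 was the most abundant at 383 and 349 CPM, and the integrin subunit Itgb1 differed most at a log2 ratio of -0.41. Ptgfrn, a tetraspanin partner in the same role named after its value was seen, had 0.33.

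For refilling, the 2 expressed genes were both above 0: Saraf, an inhibitor of store-operated entry, at 1235 and 1038 CPM with a log2 ratio of 0.22, and Orai3 at 0.31. Of the other entry channels only Cacna1i was expressed, at -0.08. For removal, the Golgi pump Atp2c1 and the plasma membrane pump Atp2b1 had -0.08 and -0.04. Of the mitochondrial genes Mcu, the pore of the calcium uniporter, was the most abundant at 386 and 409 CPM with a log2 ratio of -0.12. Smdt1, a small subunit of the uniporter, was 1.74-fold higher at 88.1 against 49.5 CPM (log2 0.80, interval 0.69 to 0.91). A ratio as high was found in 5.22% of expressed genes. Its longest transcript is only 736 bases, and with the length trend removed its log2 ratio was 0.49. Smdt1 was named after its value was seen.

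Among 5 expressed genes that read the calcium signal, Ppp3r1, the regulatory subunit of calcineurin, differed most at a log2 ratio of -0.29. Wee2, a kinase that promotes exit from the arrest, and Fbxo43, the inhibitor that holds it, had -0.17 and -0.17. Both were named after their values were seen. Of 6 expressed genes of cortical granule release 4 lay above and 2 below 0. The small GTPases Rab3a and Rab27a, of which Rab3a was named after its value was seen, went apart at log2 ratios of 0.74 and -0.79. Rab27a, at 6.40 CPM in slimming and 10.9 CPM in control oocytes, also reached 10 CPM only where it is higher. The most abundant gene of that role was Nsf at 33.5 and 34.6 CPM. In zinc handling, Mtf1, a metal-sensing factor, was the most abundant at 180 and 251 CPM (log2 -0.51). The zinc exporter Slc30a1 was 1.79-fold lower at 26.7 against 46.8 CPM (log2 -0.84, interval -0.99 to -0.69).

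**Figure D4:**
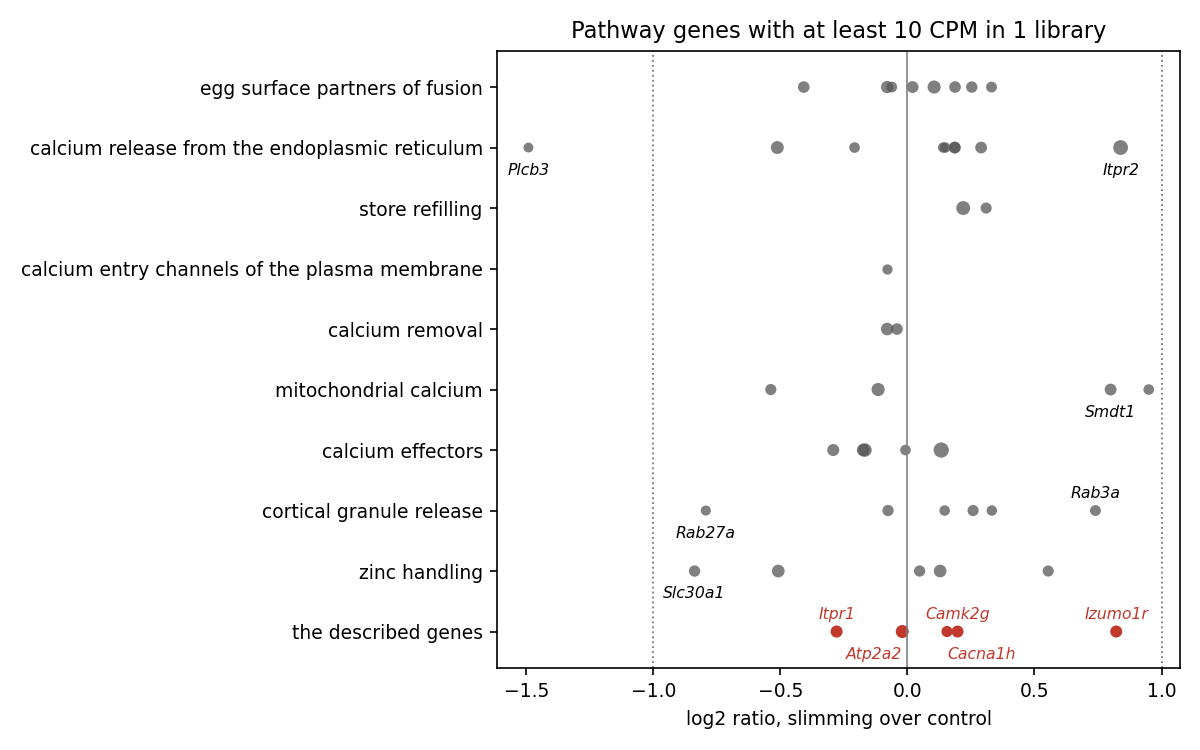
Log2 ratio of slimming over control for the 42 expressed genes of the 9 pathway roles (grey) and the 5 expressed members (red); larger points have a higher mean level. Dotted lines mark 2-fold, labels on grey points name genes described in the text, and only Plcb3 lies past 2-fold. Plcb3 and Rab27a reach 10 CPM in the control library only.

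Exon sequence shared with another annotated gene limits some counts, since the use of strand is not given in the sources used here. Of the 10 members 6 overlap a gene on the opposite strand. Per overlapping gene, this ran from 7 bases (Orai1 with Gm2479) to 218 bases (Cd9 with Gm26728). Itpr1 overlaps both Gm44040 (108 bases) and Gm44101 (181 bases). Cd81 shares 104 bases with R74862, which had 0 counts in slimming oocytes and 9 in control oocytes. For Cacna1h the overlap with Tpsg1 is 158 bases, and Tpsg1 itself had 149 and 202 counts. Izumo1r, Camk2g, Stim1 and Trpm7 share no exon sequence. How reads matching several related genes were assigned is also not given, which bears on Camk2g and its relatives.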

How the data were processed

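RNA of pooled metaphase II oocytes was measured as 1 library per group. Per the labels' protocols, mRNA was reverse transcribed from an oligo(dT) primer with 24 such bases and amplified by PCR for 18 and then 14 cycles, and no molecular identifiers are named. PCR copies therefore cannot be told from independent molecules. Sequencing used SOLiD 4. The submitters' processing notes name mm9 as the build. Aligner, counter and strand setting: not given in the sources used here. Raw counts per Ensembl gene were deposited by the authors, for 18017 genes. The other 18210 entries are blank and were read as no count. The authors also deposited log2 ratios and a p-value with q-values, made from the reads of the 2 libraries. The authors made a z-score for each gene from the same reads, per the file headers, and this score was not used.

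Symbols and transcript lengths came from GENCODE vM21 by Ensembl identifier; 16913 genes with counts matched, and 100 of the 101 pathway symbols are in the table. The promoter windows came from RefSeq (GRCm38.p6). Log2 ratios were computed after adding 0.5 to each count and scaling with TMM factors (1.01 slimming, 0.989 control; edgeR 4.0.16, R 4.3.3). Intervals are exact Clopper-Pearson for ratios and exact Poisson for levels, at 95%. CPM use the total count. Expressed means at least 10 CPM in at least 1 library. Python 3.11.15, scipy 1.17.1 and statsmodels 0.14.6 (lowess for the length trend) were used, and the calculation was tested on simulated counts.

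With 1 library per group no test was run. The members were described in full; from the pathway list were named genes at least 2-fold apart and, in each role, the most abundant and the most different expressed gene; some genes under this rule are not reported here. Members and lists were chosen with earlier results of these data known. Alternatives were other scalings (total count, DESeq2 1.42.0 size factors), 5 added to each count, other filters, a length correction and a 1.5-fold threshold.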

Additional observations from a re-analysis of the deposited data

How the results depend on the processing

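None of the 10 genes was at least 2-fold apart under either other scaling, with 5 added to each count, with the length trend removed, at 1 CPM or with no filter; at a 1.5-fold threshold 1 of the 5 expressed members was. The pathway list held 1 gene past 2-fold, 7 with genes of at least 1 CPM, 23 with no filter and 7 at 1.5-fold. Of all expressed genes 267 were past 2-fold, 2025 with genes of at least 1 CPM, 6960 with no filter and 999 at 1.5-fold. Over the 5595 expressed genes with a known length, 151 were 2-fold higher and 109 lower as observed, and 115 and 123 with the length trend removed. The median log2 ratio of the members stayed between 0.15 and 0.21. Of 40 alternative values for single members 38 lay within the counting interval, and the other 2 were Izumo1r (0.63) and Itpr1 (-0.19) with the length trend removed. Atp2a2 alone changed sign. No paired analysis was possible because each group is 1 library. Depth limits Stim1, Cd81 and Trpm7, which rest on fewer than 50 counts per library.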

Other observations

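Several genes of the fusion and calcium roles lay under 10 CPM and outside the naming rule, and are given here after their values were seen. Igsf8, the immunoglobulin-family partner that binds CD9 and CD81, had 107 counts in slimming oocytes and 34 in control oocytes, 2.95-fold higher (log2 1.56, interval 1.0 to 2.17). Part of its exon sequence is shared with another annotated gene, so some of these reads may not be its own. Trpv3, a calcium entry channel of the mature egg, had 52 and 24 counts (log2 1.02, interval 0.31 to 1.80), and Plcb1 had 44 and 17. On the other side Prkce had 52 and 108 counts, Plcd4 24 and 47, and Stx4a 4 and 23. Of 23 pathway genes between 1 and 10 CPM, 3 lay past 2-fold on the higher and 3 on the lower side, where 16.7% and 16.5% of all genes at that level did.

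The tetraspanins Cd63 and Cd53 went the opposite way to Cd9 and Cd81, while Cd151 was higher in the slimming library (log2 0.25). Cd63 had 0 counts in slimming oocytes and 15 in control oocytes, at least 5.17-fold lower against a floor of 3 counts in the library, and Cd53 had 1 and 17. Camk2d had 0 and 15 counts as well, and Cacna1c 0 and 4. Pathway genes at 0 in the control library instead were Prkca (14 and 0 counts), Trpm6 (12 and 0) and Trpc1 (7 and 0). With no filter on level, 3186 of 18017 genes were at least 2-fold higher in the slimming library and 3774 as far lower. The immune marker sum was lower in the slimming library, at 7.92 against 18.6 CPM. Its part in the values of Cd63, Cd53 and Camk2d was not tested. The sperm genes Izumo1 and Plcz1, whose proteins meet JUNO and start the calcium release, had no counts in either library, while Prm2 had 415 and 450.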
